A study of Homo sapiens with 6 samples.

Results

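A set of 10 genes that handle fluoropyrimidines and other nucleoside drugs was examined in SW480 cells, an established human colorectal adenocarcinoma line. They are SLC29A1, UCK2, UMPS, UPP1, TYMP, DPYD, TYMS, TK1, RRM1 and RRM2, chosen by symbol, and all 10 were found among the 56638 gene rows of each count table. RNA sequencing covered 2 groups of 3 libraries. The TGFB1 group had been given the cytokine TGF-β1 repeatedly (10 ng/ml), and control cells received none, both at passages 16 to 19. All libraries came from this single line, and the labels do not say whether they were separate cultures. The p-values therefore cover the spread among these libraries, which may be technical.

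Fluorouracil is a uracil analogue that becomes active only after a cell has turned it into nucleotides. SLC29A1 is the equilibrative carrier that moves nucleosides across the plasma membrane. UMPS turns fluorouracil straight into a ribonucleotide, UPP1 makes the ribonucleoside that UCK2 then phosphorylates, and TYMP makes the deoxyribonucleoside that TK1 then phosphorylates. RRM1 and RRM2 are the large and the small subunit of ribonucleotide reductase, which makes deoxyribonucleotides and is a target of gemcitabine. TYMS, thymidylate synthase, is the enzyme that the active deoxyribonucleotide of fluorouracil blocks, and DPYD catalyses the rate-limiting step of fluorouracil breakdown. TYMS, TK1, RRM1 and RRM2 are also known as genes of DNA replication.

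Total counts in genes ran from 13012898 to 16005222 in TGFB1 libraries and from 13828306 to 15298355 in control libraries. Levels are given in CPM, a read count set relative to the size of its library after TMM scaling (trimmed mean of M values), and changes as log2 fold change of TGFB1 minus control with its standard error. A gene was called where the Benjamini-Hochberg adjusted p of edgeR's quasi-likelihood test, over 14897 genes, was under 0.05. All 5 TGF-β targets listed as a check of the labels were called higher, with TGFBI at 677 CPM in TGFB1 libraries, against 14.6 CPM in control libraries. PMEPA1, SMAD7 and SKIL changed by 3.80, 1.26 and 1.22 on the log2 scale. Of 12 colorectal epithelial markers 4 were tested, of which 3 were called lower and KRT8 did not pass. The keratin gene KRT18 had 125 CPM in TGFB1 and 184 CPM in control libraries, EPCAM 4.06 and 6.94 CPM, and CDH1 (E-cadherin) 0.271 and 1.10 CPM (edgeR adjusted p = 1.73e-10, 0.000246 and 0.000610). CDH1 had 12 counts over the TGFB1 libraries and 47 over the control libraries, and so passed the filter through the control libraries. CDX2 had 0 counts in all libraries, and KRT20, VIL1 and CDH17 stood under 0.2 CPM in both groups. The epithelial markers together, mostly KRT8, summed to 1782 to 1824 CPM in TGFB1 libraries and 1897 to 1911 CPM in control libraries. The 10 fibroblast markers summed to 120 to 136 CPM in TGFB1 libraries and 91.0 to 95.03 CPM in control libraries, mostly from COL1A1, and all 5 that were tested were called higher. DCN had 7.54 CPM in TGFB1 and 3.37 CPM in control libraries, PDGFRB 14.8 and 7.99 CPM, and COL1A1 105 and 81.3 CPM. FAP had 51 counts over the TGFB1 libraries and 1 over the control libraries, and so passed the filter through the TGFB1 libraries. THY1 had 52 counts over the TGFB1 libraries and 23 over the control libraries, and so also passed the filter through the TGFB1 libraries. Its mean was 1.16 CPM in TGFB1 and 0.538 CPM in control libraries. The call of THY1 was lost in DESeq2 (adjusted p = 0.0800) and without TGFB1 1, TGFB1 2, control 1 or control 3 (edgeR adjusted p = 0.0579 to 0.150). COL1A2, COL3A1 and PDGFRA were under 0.1 CPM in both groups. The 10 immune markers summed to 4.49 to 6.66 CPM in TGFB1 and 2.57 to 3.01 CPM in control libraries, with the leukocyte gene PTPRC at 0 and CSF1R called higher (3.28 CPM in TGFB1, 0.669 CPM in control libraries). CSF1R had 145 counts over the TGFB1 libraries and 29 over the control libraries, and so passed the filter through the TGFB1 libraries. The 8 endothelial markers summed to 2.26 to 3.77 CPM in TGFB1 and 5.00 to 5.80 CPM in control libraries, with PECAM1 at 0 and VWF called lower (0.511 CPM in TGFB1, 2.66 CPM in control libraries). VWF had 23 counts over the TGFB1 libraries and 115 over the control libraries, and so passed the filter through the control libraries. The part of these markers in the results below was not tested.

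All 10 genes passed the filter on low counts. The carrier SLC29A1, the kinase UCK2, the phosphorylase TYMP and the breakdown enzyme DPYD were higher with TGF-β1. TK1 and RRM2 were lower, by small amounts. UMPS, UPP1, TYMS and RRM1 did not pass. The counts are thus 4 higher and 2 lower of 10, where 23.4% of all tested genes were called higher, 23.9% lower and 47.3% either way. In 7 of the 10 genes, 4 higher and 3 lower, the groups did not overlap, against 54.2% of all tested genes (27.0% with TGFB1 above and 27.3% with TGFB1 below). The median log2 fold change of the 10 genes was 0.15, and that of all tested genes was 0.00033. Scaled without TMM factors, on library totals alone, the counts were 6 higher and 1 lower, and all tested genes shifted the same way, to 4216 higher and 2879 lower, against 3483 and 3561 with TMM.

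**Figure D1:**
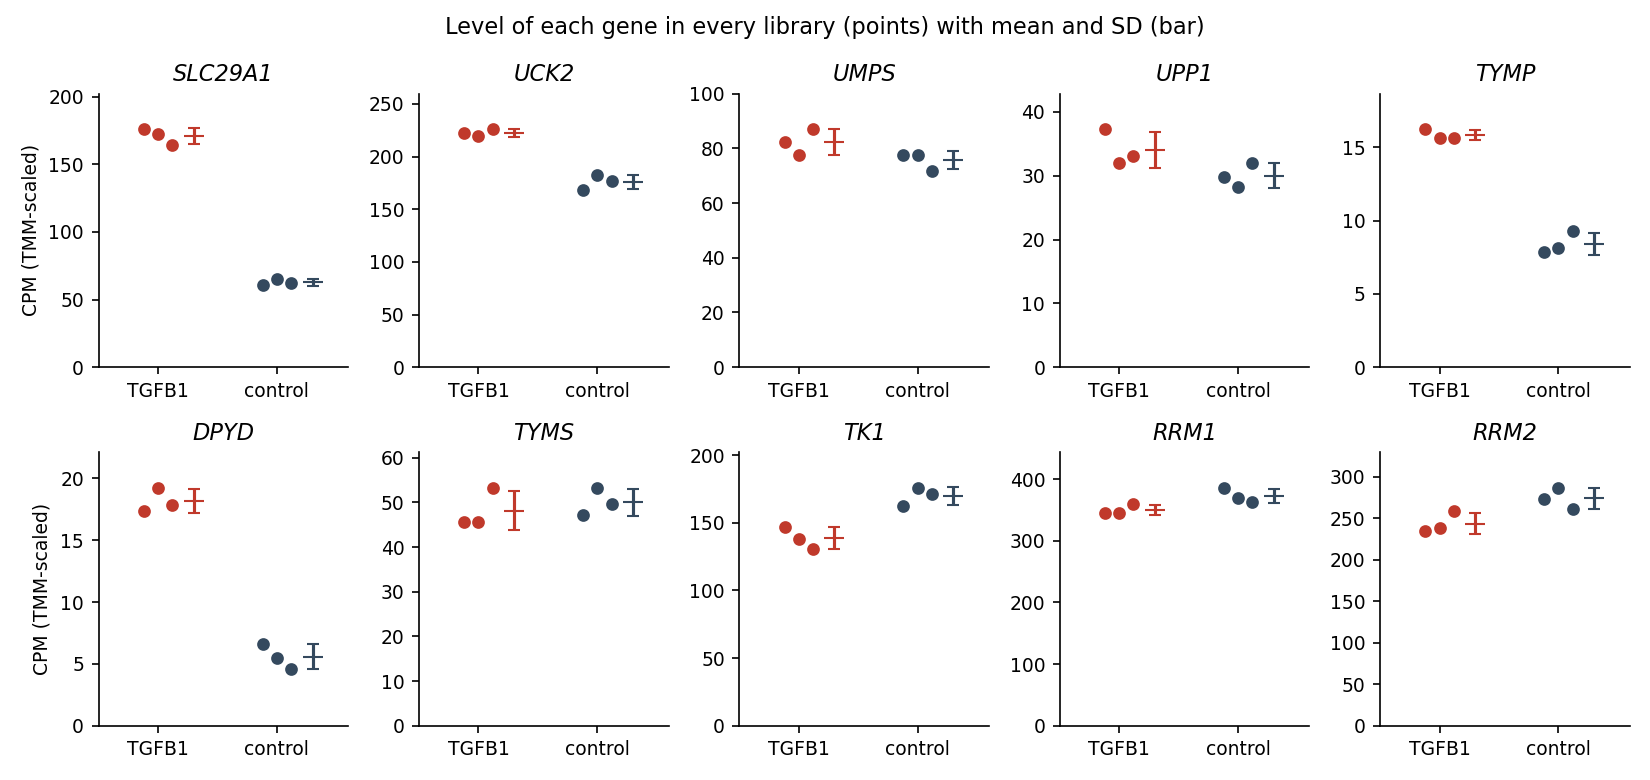
CPM of each gene in every library (points), with the mean and SD of the 3 libraries of a group (bars), TGFB1 left of control in each panel. SLC29A1, UCK2, TYMP and DPYD lie higher in all TGFB1 libraries, TK1, RRM1 and RRM2 lie lower, and the groups overlap in UMPS, UPP1 and TYMS.

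Promoter windows are shown for the 2 genes that rose most and the 2 that fell, each as 300 bases from 250 before to 50 after the most downstream start that RefSeq lists (GRCh38.p14). Capitals mark matches to the words CCAAT (the CCAAT box, bound by NF-Y) and CAGAC (a word that holds the core of a SMAD binding site), on either strand, so that ATTGG and GTCTG are also marked. SLC29A1 is at chr6:44223345-44223644 on the plus strand, DPYD at chr1:97920985-97921284 on the minus strand, TK1 at chr17:78187003-78187302 on the minus strand and RRM2 at chr2:10122489-10122788 on the plus strand.
SLC29A1: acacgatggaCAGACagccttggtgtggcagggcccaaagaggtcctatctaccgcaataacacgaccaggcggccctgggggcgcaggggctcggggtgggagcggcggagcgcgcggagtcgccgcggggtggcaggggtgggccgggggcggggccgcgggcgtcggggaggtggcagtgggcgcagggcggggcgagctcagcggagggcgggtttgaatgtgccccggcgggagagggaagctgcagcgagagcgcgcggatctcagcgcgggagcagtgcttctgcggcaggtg
DPYD: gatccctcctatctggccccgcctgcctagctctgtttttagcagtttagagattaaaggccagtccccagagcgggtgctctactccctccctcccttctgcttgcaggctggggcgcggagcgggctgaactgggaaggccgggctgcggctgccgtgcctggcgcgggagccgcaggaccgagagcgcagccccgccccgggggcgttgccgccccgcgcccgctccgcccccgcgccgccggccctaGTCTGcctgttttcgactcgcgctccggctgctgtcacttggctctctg
TK1: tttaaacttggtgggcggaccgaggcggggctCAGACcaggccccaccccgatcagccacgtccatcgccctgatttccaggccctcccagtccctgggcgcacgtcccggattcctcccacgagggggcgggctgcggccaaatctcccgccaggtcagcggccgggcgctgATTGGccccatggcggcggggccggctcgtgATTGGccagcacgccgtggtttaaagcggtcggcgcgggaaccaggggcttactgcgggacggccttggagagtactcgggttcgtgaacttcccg
RRM2: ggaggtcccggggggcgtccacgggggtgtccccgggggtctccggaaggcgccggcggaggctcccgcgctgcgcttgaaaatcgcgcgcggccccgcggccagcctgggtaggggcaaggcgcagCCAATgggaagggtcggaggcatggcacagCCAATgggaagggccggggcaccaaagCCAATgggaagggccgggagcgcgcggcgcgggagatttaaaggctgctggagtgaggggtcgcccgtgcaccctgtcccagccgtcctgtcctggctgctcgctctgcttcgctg

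The windows of the genes that fell held CCAAT boxes, 2 in TK1 and 3 in RRM2, and those of SLC29A1 and DPYD held 0. For each of these genes RefSeq lists 2 windows, and only the most downstream was searched. Which start these cells use was not determined. Over the 10 genes a CCAAT box was present in 5, which besides TK1 and RRM2 were RRM1, TYMP and UCK2, and so in genes called in either direction. It was present in 35.4% of 27305 such windows of all RefSeq genes. CAGAC was found in 9 of the 10, RRM2 being the exception, and so in genes called in either direction and in genes not called. It was found in 45.4% of all windows. The words TTTCCCGC, TTTCGCGC, TTTGCCGC and TTTGGCGC, forms of the E2F site, gave 1 match in TYMS and were present in 3.21% of all windows. The GC box GGGCGG was present in 7 of 10, with 3 matches each in SLC29A1 and DPYD, against 43.4% of all windows, and TATAAA in 0 of 10, against 12.3%. Matches were counted on both strands, and overlap between different words was not removed. The windows of the 10 genes were rich in G and C, at 57.0% to 80.3%.

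To set genes beside each other, levels were divided by the length of their merged exons in GENCODE 29. Of that length 46.6% is shared with other genes in TYMS, 20.7% in TYMP and 20.2% in RRM2. Reads there may be counted as ambiguous, so the places of these genes in the order are uncertain. Merged exons take in every annotated transcript, and which of them these cells use was not determined. The annotation used in counting is not known either, so the order is approximate for all 10 genes. RRM1 and TK1 stood highest, at 83.6 ± 1.96 and 74.5 ± 4.32 CPM per kb in TGFB1 libraries and 89.3 ± 2.77 and 91.2 ± 3.71 CPM per kb in control libraries (SD, n = 3 each). RRM2 followed at 45.8 CPM per kb in TGFB1 and 51.5 CPM per kb in control libraries. DPYD stood lowest, at 2.55 ± 0.137 CPM per kb in TGFB1 and 0.781 ± 0.141 CPM per kb in control libraries. SLC29A1 stood above UCK2 and TYMS in TGFB1 libraries, at 38.8, 31.5 and 19.5 CPM per kb, and below both in control libraries, where it had 14.2 CPM per kb and they had 24.9 and 20.2. UMPS, UPP1 and TYMP came between these genes and DPYD in both groups. No neighbours in this order overlapped in TGFB1 libraries, and in control libraries TK1 and RRM1 did.

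**Figure D2:**
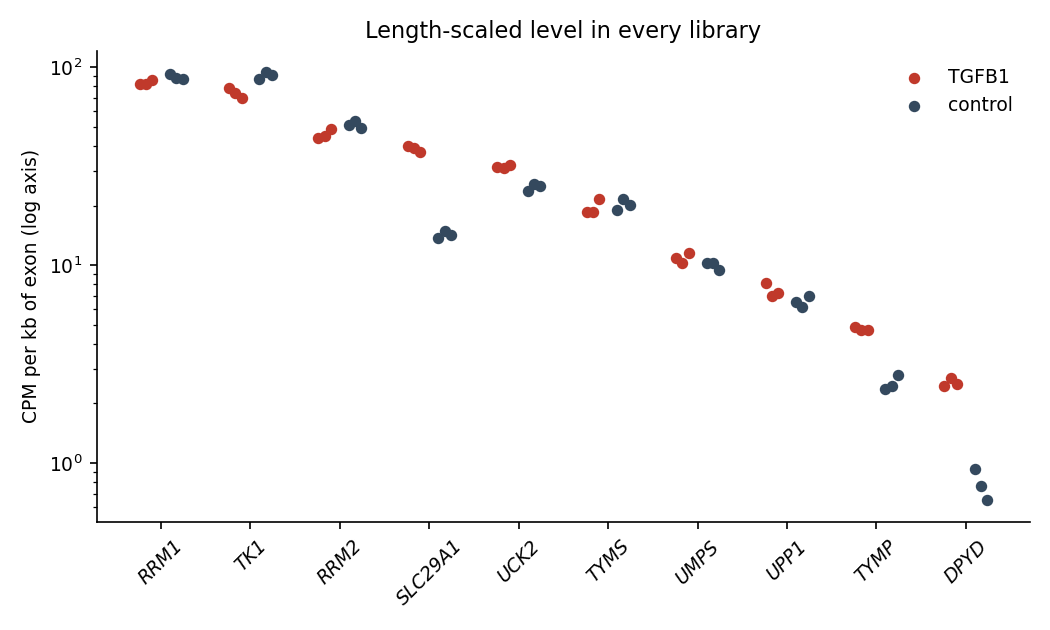
CPM per kb of merged exon in every library (points, log axis), genes ordered by their mean in TGFB1 libraries, with TGFB1 points left of control points. SLC29A1 moves above UCK2 and TYMS in TGFB1 libraries, and DPYD is lowest in both groups. Exon length shared with other genes, 46.6% in TYMS, was not taken out.

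Uptake of nucleosides was represented by SLC29A1, which had 176, 172 and 164 CPM in TGFB1 libraries 1, 2 and 3, against 60.5, 65.3 and 62.4 CPM in control libraries 1, 2 and 3. The groups were far apart, and the libraries within each lay close together. The carrier rose by 1.45 ± 0.054 on the log2 scale, 2.72-fold (edgeR adjusted p = 6.32e-19), and 467 of the tested genes had a larger log2 fold change. Its promoter window, printed above, held a CAGAC word near its upstream end, a word found in 9 of the 10 windows, that of TK1 included. Of the 6 other nucleoside carriers in the list, 3 were tested. SLC29A3, an equilibrative carrier of lysosomes and mitochondria, was higher at 8.77 ± 0.281 CPM in TGFB1 and 6.49 ± 1.55 CPM in control libraries (log2 fold change 0.43 ± 0.15, edgeR adjusted p = 0.0171), and this call ended without control 1 (edgeR adjusted p = 0.144). SLC29A2, a further plasma membrane carrier of this family, stood at 72.9 CPM in TGFB1 and 71.1 CPM in control libraries and did not pass (edgeR adjusted p = 0.698). SLC29A4, a transporter of monoamines and adenosine, had 2.99 and 2.26 CPM in TGFB1 and control libraries (edgeR adjusted p = 0.113). The concentrative carriers SLC28A1 and SLC28A2 had 0 counts in all libraries, which allows up to 0.0677 CPM in TGFB1 and 0.0698 CPM in control libraries (3 counts over a group, counting error only), and SLC28A3 stood at 0.132 CPM in TGFB1 and 0.120 CPM in control libraries.

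Among the enzymes that build fluorouracil nucleotides from the base or the ribonucleoside, UCK2 rose. UCK2, uridine-cytidine kinase, had 222, 219 and 226 CPM in TGFB1 libraries, against 168, 182 and 177 CPM in control libraries. The groups did not overlap, and the rise was 1.27-fold (log2 fold change 0.34 ± 0.048, edgeR adjusted p = 9.29e-07). Its relatives differed from it in call: UCK1 stood at 47.4 CPM in TGFB1 and 46.0 CPM in control libraries and did not pass (edgeR adjusted p = 0.632), and UCKL1 was lower at 48.4 ± 0.675 CPM in TGFB1 and 61.0 ± 2.50 CPM in control libraries (edgeR adjusted p = 4.89e-05). The difference between these genes was not itself tested, and UCK1 was chosen after its values were seen. UMPS had 82.2, 77.6 and 87.0 CPM in TGFB1 libraries, against 77.5, 77.7 and 71.9 CPM in control libraries. TGFB1 2 lay within the range of the control libraries, and the log2 fold change of 0.12, with an unadjusted 95% interval of −0.0032 to 0.24, did not pass (edgeR adjusted p = 0.104). On library totals alone, without TMM factors, it passed (edgeR adjusted p = 0.0164).

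UPP1, uridine phosphorylase, lay at the threshold. It had 37.3, 32.0 and 33.1 CPM in TGFB1 libraries, against 29.7, 28.2 and 32.1 CPM in control libraries, with TGFB1 2 just under control 3. The log2 fold change was 0.18, with an unadjusted 95% interval of 0.025 to 0.34 (edgeR adjusted p = 0.0518). Of 14 alternative settings 7 put it past the threshold, among them library totals without TMM factors (edgeR adjusted p = 0.0117) and the runs without TGFB1 2, TGFB1 3 or control 3 (edgeR adjusted p = 0.0269, 0.0468 and 0.0472).

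TYMP, thymidine phosphorylase, rose. It had 16.2, 15.7 and 15.6 CPM in TGFB1 libraries, against 7.86, 8.12 and 9.28 CPM in control libraries. All TGFB1 libraries stood well above the highest control library, and the rise was 1.88-fold (log2 fold change 0.91 ± 0.11, edgeR adjusted p = 4.79e-08). In GENCODE 29, 20.7% of its exon length is shared with ODF3B or SCO2 on the same strand, where reads may be counted as ambiguous. ODF3B was also higher, at 3.03 CPM in TGFB1 and 1.91 CPM in control libraries (edgeR adjusted p = 0.0122). That call did not hold without control 2 (edgeR adjusted p = 0.0501) or in DESeq2 (adjusted p = 0.0538). SCO2, a copper chaperone of cytochrome oxidase, had 4.52 CPM in TGFB1 and 3.92 CPM in control libraries and did not pass (edgeR adjusted p = 0.360).

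The breakdown enzyme DPYD, dihydropyrimidine dehydrogenase, had the largest fold change of the 10 genes with 807 counts over the TGFB1 libraries and 238 over the control libraries, the fewest of the members in control libraries. It had 17.4, 19.3 and 17.8 CPM in TGFB1 libraries, against 6.61, 5.48 and 4.61 CPM in control libraries. Every TGFB1 library was more than 10 CPM above every control library. DPYD rose by 1.71 ± 0.12 on the log2 scale, 3.28-fold (edgeR adjusted p = 1.59e-12), and 341 tested genes had a larger log2 fold change. Its antisense genes DPYD-AS1 and DPYD-AS2 had 0 counts in all libraries. The enzymes after DPYD in the same route were at the floor: DPYS, dihydropyrimidinase, had 3 counts over the TGFB1 libraries and 1 over the control libraries, and UPB1, β-ureidopropionase, had 1 and 1.

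CDA, cytidine deaminase, which inactivates gemcitabine and cytarabine and also acts in the conversion of capecitabine, was the listed breakdown gene with the lowest p. It rose 2.80-fold, to 109 ± 4.05 CPM in TGFB1 libraries, against 38.8 ± 2.14 CPM in control libraries (edgeR adjusted p = 7.36e-18). CDADC1, a related deaminase, was lower, at 10.7 CPM in TGFB1 and 13.5 CPM in control libraries (edgeR adjusted p = 0.00963), and NUDT5 did not pass (edgeR adjusted p = 0.212). Of 7 genes put in this list these 3 were tested, and NUDT5 was listed without being a known enzyme of pyrimidine breakdown. CES2, a carboxylesterase that acts on capecitabine, was lower at 46.2 ± 1.74 CPM in TGFB1 and 58.5 ± 1.72 CPM in control libraries (edgeR adjusted p = 4.59e-05), and CES1 had 0 counts.

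TYMS did not pass. It had 45.6, 45.6 and 53.3 CPM in TGFB1 libraries, against 47.1, 53.3 and 49.6 CPM in control libraries. TGFB1 3 was as high as the highest control library, and the groups overlapped. The log2 fold change was −0.058 with a 95% interval of −0.20 to 0.087 (edgeR adjusted p = 0.535), and it passed in 0 of 14 alternatives. Its level is uncertain, because 46.6% of its exon length in GENCODE 29 is shared with genes on the opposite strand, 39.1% with ENOSF1 and 7.41% with TYMSOS, and the sources used here do not state whether strand was used in counting. ENOSF1 itself was lower, at 57.2 CPM in TGFB1 and 70.0 CPM in control libraries (edgeR adjusted p = 0.000224). Within each library, the raw read count of DPYD was 0.382, 0.422 and 0.334 times that of TYMS in TGFB1 libraries 1, 2 and 3, and 0.140, 0.103 and 0.0930 times in control libraries 1, 2 and 3. The mean log2 ratio was higher by 1.78 in TGFB1 libraries, a difference that does not depend on scaling (exact two-sided permutation test, p = 0.1, the smallest that 3 against 3 libraries can give).

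TK1, cytosolic thymidine kinase, fell modestly. It had 147, 138 and 131 CPM in TGFB1 libraries, against 162, 176 and 171 CPM in control libraries. The groups did not overlap, and the level was 1.22-fold lower (log2 fold change −0.29 ± 0.052, edgeR adjusted p = 3.24e-05), a call that held in all 14 alternatives. Its window is printed above with 2 CCAAT boxes. Its mitochondrial counterpart TK2, chosen after its values were seen, had 6.60 CPM in TGFB1 and 5.48 CPM in control libraries and did not pass (edgeR adjusted p = 0.152). Next to TK1 in the list of neighbours, SYNGR2 was lower (log2 fold change −0.48 ± 0.054, edgeR adjusted p = 2.08e-08) and AFMID did not pass (edgeR adjusted p = 0.892), but neither shares exon bases with TK1 in GENCODE 29.

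RRM2, the small subunit of ribonucleotide reductase, was 1.13-fold lower. It had 234, 238 and 258 CPM in TGFB1 libraries, against 274, 287 and 261 CPM in control libraries. TGFB1 3 lay just under control 3, the closest approach of the groups. The log2 fold change was −0.17 ± 0.050 (edgeR adjusted p = 0.00635), and the call was lost without TGFB1 1 (edgeR adjusted p = 0.0638) and on library totals without TMM factors (edgeR adjusted p = 0.0622). RRM2 has pseudogene copies, of which RRM2P2, RRM2P3 and RRM2P4 together had 1 count in TGFB1 libraries and 0 in control libraries. Reads that align to several places are not in the counts, and 20.2% of the exon length in GENCODE 29 is shared with another annotated gene.

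RRM1, the large subunit, had 345, 345 and 359 CPM in TGFB1 libraries, against 386, 370 and 364 CPM in control libraries. The groups did not overlap, but the log2 fold change of −0.094 ± 0.046 did not pass (edgeR adjusted p = 0.0947). It passed without TGFB1 3 (edgeR adjusted p = 0.0333). The antisense gene RRM1-AS1 had 4 counts over the TGFB1 libraries and 2 over the control libraries. The raw count of RRM2 was 0.679, 0.691 and 0.720 times that of RRM1 in TGFB1 libraries, and 0.709, 0.776 and 0.719 times in control libraries. These ratios overlapped between the groups (difference of mean log2 ratios −0.076, exact two-sided permutation test, p = 0.3). The p53-inducible small subunit RRM2B, chosen after its values were seen, was lower at 16.3 ± 1.10 CPM in TGFB1 and 21.5 ± 0.602 CPM in control libraries (log2 fold change −0.40 ± 0.088, edgeR adjusted p = 0.000427).

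**Figure D3:**
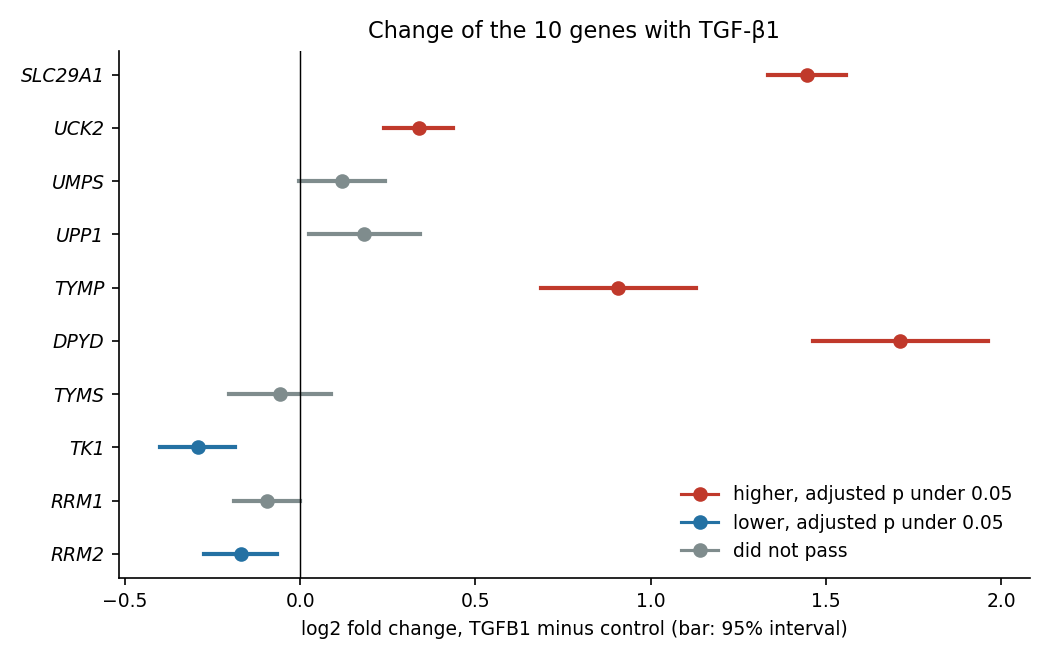
Log2 fold change of TGFB1 minus control for the 10 genes, in the order of their roles, with 95% intervals. DPYD at 1.71 and SLC29A1 at 1.45 lie farthest to the right, and TK1 at −0.29 farthest to the left.

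The other genes of pyrimidine supply moved in both directions, each list being read against the 47.3% of all tested genes that were called. Of 14 listed nucleoside and nucleotide kinases besides TK1 and UCK2, 12 were tested, of which 3 were higher, 2 lower and 7 did not pass (median log2 fold change 0.063). NME7, of the nucleoside diphosphate kinase family, rose 1.86-fold, to 40.4 ± 4.74 CPM in TGFB1 libraries, against 21.6 ± 0.932 CPM in control libraries (edgeR adjusted p = 3.96e-10). NME4, a mitochondrial member of that family, was lower (log2 fold change −0.23 ± 0.048, edgeR adjusted p = 0.000206). DGUOK, mitochondrial deoxyguanosine kinase, rose 1.29-fold (edgeR adjusted p = 0.000146). DCK, deoxycytidine kinase, which activates gemcitabine and cytarabine and was chosen after its values were seen, rose to 23.5 ± 1.91 CPM in TGFB1 libraries, against 18.5 ± 1.62 CPM in control libraries (edgeR adjusted p = 0.00249).

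De novo pyrimidine synthesis makes uridine nucleotides from small precursors. Of 6 tested genes listed for it besides UMPS, 4 were higher, 0 lower and 2 did not pass (median log2 fold change 0.21). The 2 were DHODH (edgeR adjusted p = 0.131) and CTPS2 (edgeR adjusted p = 0.463), both picked with their values in view. UMPS, the member that belongs to this route, did not pass either (edgeR adjusted p = 0.104). CTPS1, CTP synthase, had the lowest p, at 407 ± 19.2 CPM in TGFB1 and 307 ± 10.3 CPM in control libraries (edgeR adjusted p = 4.69e-08). CAD, which carries the opening steps of the route, rose 1.16-fold (edgeR adjusted p = 0.00146). PRPS1 and PRPS2, which make the ribose donor, had log2 fold changes of 0.25 and 0.21 (edgeR adjusted p = 0.000114 and 0.00145).

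Among 11 tested genes of the deoxynucleotide pool and of nucleotidases 3 were higher, 4 lower and 4 did not pass (median 0.074). The higher calls were 2 without TGFB1 1, TGFB1 3, control 1 or control 2. DCTPP1, picked with its values in view, was the higher gene nearest the threshold (edgeR adjusted p = 0.0279), and its groups overlapped. NT5E (CD73), the cell-surface 5′-nucleotidase that releases nucleosides from monophosphates, rose 13.2-fold, to 57.9 ± 2.02 CPM in TGFB1 libraries, against 4.37 ± 0.152 CPM in control libraries (edgeR adjusted p = 5.19e-23). The cytosolic nucleotidase genes NT5C2 and NT5C3A were 1.68-fold and 1.70-fold lower (edgeR adjusted p = 2.99e-11 and 4.63e-10). NT5C2 had 43.2 ± 1.28 CPM in TGFB1 and 72.7 ± 2.46 CPM in control libraries. DCTD, deoxycytidylate deaminase, which supplies the substrate of TYMS, rose 1.31-fold (edgeR adjusted p = 0.000131).

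Of 10 tested genes of the folate cycle that feeds TYMS 1 was higher, 3 lower and 6 did not pass (median −0.040). SLC19A1, the reduced folate carrier, rose to 61.0 CPM in TGFB1 libraries, against 49.5 CPM in control libraries (edgeR adjusted p = 0.000244), and MTHFD1 was lower (log2 fold change −0.18, edgeR adjusted p = 0.00315). SHMT2, lower by 0.13 (edgeR adjusted p = 0.0273), lost its call on library totals without TMM factors (edgeR adjusted p = 0.207), with upper quartile scaling (0.0840), with the replicate number as a block (0.0714), and without TGFB1 2 or control 3 (0.164 and 0.124). Of 9 tested genes that remove uracil and fluorouracil from DNA 3 were higher, 2 lower and 4 did not pass (median −0.041). In DESeq2 2 were higher and 3 lower. The higher calls were also 2 with no filter beyond 1 count, with the replicate block, and without TGFB1 1, TGFB1 2 or control 3. SMUG1, picked with its values in view, was the higher gene nearest the threshold (edgeR adjusted p = 0.0444). UNG, the main uracil glycosylase, rose to 119 ± 7.51 CPM in TGFB1 libraries, against 86.9 ± 1.36 CPM in control libraries (edgeR adjusted p = 7.70e-08). MBD4 was higher and TDG lower, both glycosylases too (log2 fold change 0.26 and −0.24, edgeR adjusted p = 0.000242 and 0.00215). LIG3, a DNA ligase, was lower by 0.19 (edgeR adjusted p = 0.0113), which did not hold on library totals without TMM factors (edgeR adjusted p = 0.0703).

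Genes of the cell cycle were set beside TYMS, TK1, RRM1 and RRM2 because these are replication genes. Of 22 tested S-phase and E2F target genes 7 were higher, 3 lower and 12 did not pass (median 0.064), or 10 higher and 1 lower on library totals without TMM factors, a scaling under which more of all tested genes were called higher too (4216 against 3483). UHRF1 rose 1.44-fold and CCNE1 (cyclin E1) 1.61-fold (edgeR adjusted p = 7.19e-10 and 4.03e-09), RFC4 and SLBP changed by 0.46 and 0.27 on the log2 scale, and the list summed to 3465 to 3514 CPM in TGFB1 and 3420 to 3515 CPM in control libraries. The 3 lower S-phase genes, picked with their values in view, were MCM2, CDC6 and E2F2 (log2 fold change −0.18, −0.18 and −0.22). In DESeq2 the lower calls of this list were 2. Of 16 tested mitosis genes 9 were lower, 3 higher and 4 did not pass (median −0.19), and they summed to 4384 to 4511 CPM in TGFB1 libraries and 5127 to 5289 CPM in control libraries. AURKA was 1.46-fold lower (edgeR adjusted p = 6.46e-11), and TOP2A, KIF11 and BUB1 were lower too (log2 fold change −0.33, −0.33 and −0.28). The 3 higher mitosis genes, picked with their values in view, were CCNA2, CCNB2 and BUB1B (log2 fold change 0.26, 0.23 and 0.23). All 8 tested cell cycle inhibitors were called, 5 higher and 3 lower, though RBL2, picked with its values in view, did not pass in DESeq2 (adjusted p = 0.0632) or without TGFB1 1, TGFB1 2, control 2 or control 3 (edgeR adjusted p = 0.0807 to 0.170). CDKN2B (p15), which blocks the cyclin D kinases, rose 4.14-fold, to 69.0 ± 2.45 CPM in TGFB1 libraries, against 16.7 ± 1.93 CPM in control libraries (edgeR adjusted p = 7.40e-19). CDKN2A, CDKN1C and CDKN1A rose by 0.88, 1.22 and 0.96 on the log2 scale. The 3 lower inhibitors, chosen after their values were seen, were CDKN1B, CDKN2C and RB1. CDKN1B was 1.83-fold lower, at 35.6 CPM in TGFB1 and 65.1 CPM in control libraries. CDKN2C was 1.47-fold lower and RB1 1.33-fold lower. In bulk RNA, fewer cells in a phase of the cycle and less RNA per cell cannot be told apart, and the part of these changes in those of TK1 and RRM2 was not tested.

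**Figure D4:**
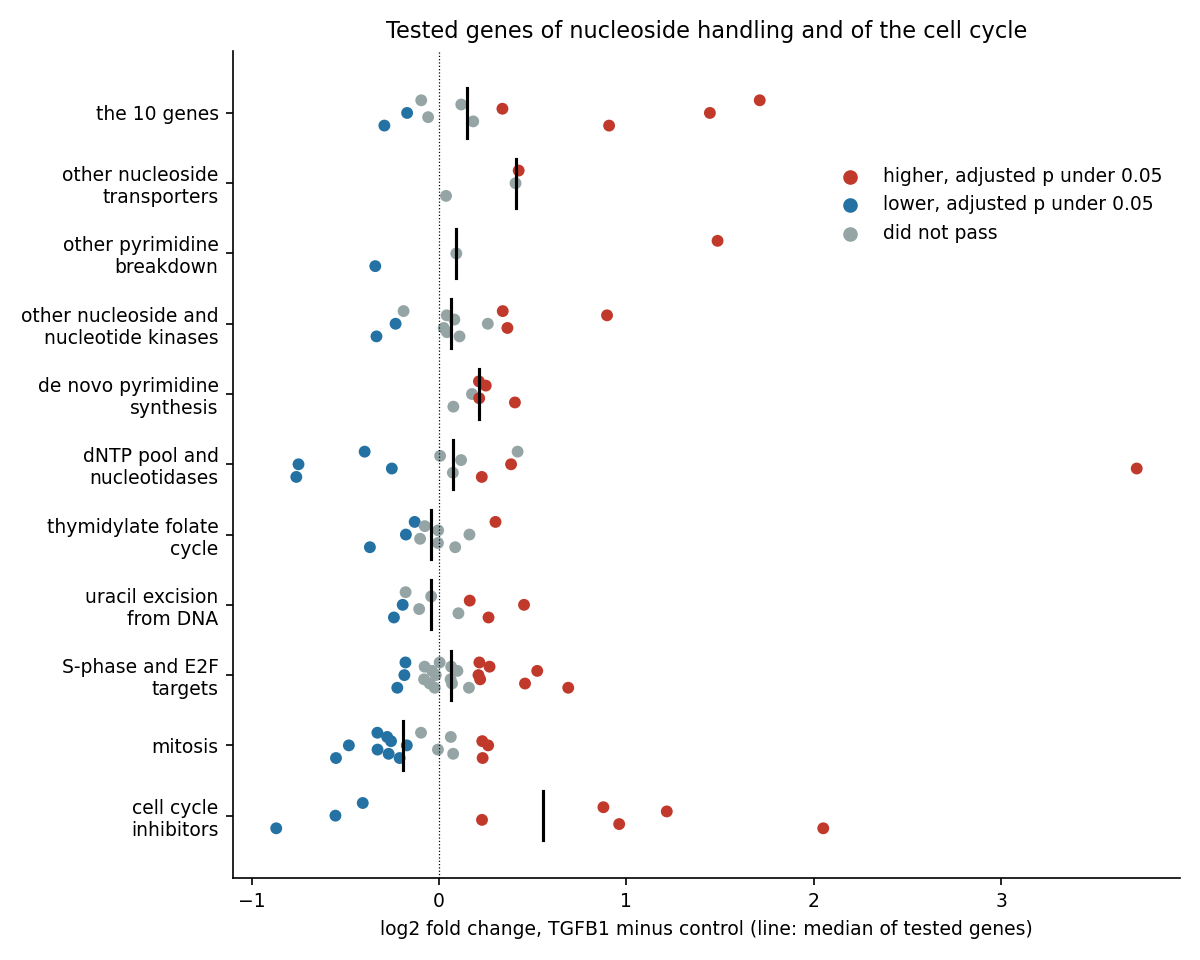
Log2 fold change of TGFB1 minus control for each tested gene (points) of the lists, with the median of each list (black line). Called genes lie on both sides of 0 in most lists. NT5E at 3.72 lies farthest to the right, and the mitosis genes have a median of −0.19.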

How the data were processed

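The data were gene-level read counts from RNA sequencing of 3 TGFB1 and 3 control libraries of SW480 cells. The authors deposited whole-number counts per gene symbol for each library, without normalization. The submitters' processing notes name TopHat2 2.0.11, TopHat, HTSeq, hg19 and GRCh37 but assign them no role. Annotation, strand setting and read filters: not given in the sources used here. Closing totals of the counter stayed out of library sizes and tests. As shares of all counts, these totals included, they were no feature 5.44% to 5.98%, ambiguous 9.01% to 9.43%, and aligned to several places 12.0% to 12.5%.

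The 14897 genes tested were those kept by filterByExpr with minimum counts of 10 and, in total, 15. Counts were scaled by TMM (factors 1.015 to 1.024 in TGFB1 and 0.975 to 0.986 in control libraries) and tested with edgeR 4.0.16 (robust glmQLFit and glmQLFTest, R 4.3.3) with Benjamini-Hochberg adjustment across these genes. Standard errors were derived from the F statistics. Alternatives used DESeq2 1.42.0, limma 3.58.1 (voom), other scalings and filters, the replicate number as a block, and each library left out in turn. The fit was also run on counts simulated with the same dispersion for all genes, unlike these data, and no result here rests on that run. Within each group, pairs of libraries differed by more than counting error (chi-square over degrees of freedom, 1.82 to 4.72), and each was kept as a replicate.

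The members and lists were chosen with earlier results of these data known. The text names all 10 members, up to 4 genes of each list with the lowest p, all listed neighbours found in the tables, and a few others, marked in the text as picked with their values in view. Some genes under that rule are counted in their lists but not reported here by name. No list was tested as a set. Exon lengths came from GENCODE 29 and promoter windows from RefSeq, both GRCh38, so no coordinates of the files are printed. UCK2-AS1, listed as a neighbour, was not used here.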

Additional observations from a re-analysis of the deposited data

How the results depend on the processing

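Over 14 alternatives, the calls of SLC29A1, DPYD, TYMP, UCK2 and TK1 held, with log2 fold changes of 1.42 to 1.502, 1.58 to 1.85, 0.86 to 0.98, 0.30 to 0.40 and −0.33 to −0.23. TYMS passed in 0 of them, RRM1 and UMPS in 1 each, UPP1 in 7 and RRM2 in 12, and all 10 genes kept their sign. Between 5 and 8 members were called when a library was left out, and 7 on library totals without TMM factors. Those totals moved the median log2 fold change of all genes to 0.057, which brought the log2 fold changes of TYMS and RRM1 to −0.00088 and −0.038 and put UMPS past the threshold. Over all genes 6041 to 7111 were called, against 7044. The count of called nucleoside transporters other than SLC29A1 ran from 0 to 1 when a library was left out, being 0 without control 1, and the other totals called per list stayed within 1.5 times. By direction, library totals without TMM factors took the lower calls to 1 of the members, 1 of the uracil excision genes and 1 of the S-phase genes, from 2, 2 and 3, and the higher calls of the breakdown genes to 2 from 1. Lower members were also 1 without TGFB1 1, and higher neighbours 0 in DESeq2 and without control 2. The DPYD to TYMS log2 ratio difference was 1.65 to 1.95 and the RRM2 to RRM1 difference −0.10 to −0.036 when a library was left out, the smallest being without control 2. Libraries of the same number did not deviate together (correlations of −0.107 to 0.0306), so the numbers are not taken as pairs. With the replicate number as a block 6775 genes and 6 members were called, and the ratio differences stayed at 1.78 (exact sign-flip p = 0.25, the smallest it can give) and −0.076 (p = 0.5). Standard errors were largest for DPYD and TYMP, the members with the fewest counts over all libraries.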
